A study of Mus musculus with 12 samples.

Results

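The genes described here are 10 insulin, insulin-like growth factor (IGF) and leptin signaling genes, Insr, Igf1r, Irs1, Irs2, Igf1, Igf2, Lepr, Igfbp3, Igfbp4 and Igfbp5, taken by name from a table of 23420 genes. Of these, 9 had enough counts to be tested among 13095 genes, and Igf2 did not. The counts came from bulk RNA-seq of 12 tumors grown under the skin of male C57BL/6J mice from 200000 B16-F10 cells, a transplantable mouse melanoma line. Obese mice had been fed a Western diet with added cholesterol for 15 weeks, and nonobese mice a matching control diet. Once tumors were palpable, mice received 10 mg/kg of an anti–PD-1 antibody (clone 29F.1A12), which blocks an inhibitory receptor of T cells, or of an isotype control antibody (clone 2A3), 3 times a week, and tumors were collected on day 16. Each diet was crossed with each antibody, which gave 4 groups of 3 tumors. The tumor cells were of the same line in all 4 groups, so genotype and strain did not differ between them by design.

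Insulin and the IGFs signal through 2 related receptor tyrosine kinases, encoded by Insr and Igf1r, which recruit the docking proteins encoded by Irs1 and Irs2 and so activate PI3K and AKT. AKT in turn keeps FOXO transcription factors out of the nucleus. IGF binding proteins hold IGFs outside the cell, and proteases release them. Leptin, a hormone made mainly by fat cells, acts through the receptor encoded by Lepr, a cytokine receptor that uses JAK2 and STAT3. In a tumor, these genes can be expressed by melanoma cells and by the host cells around them, and in bulk RNA fewer cells of a type and less RNA per cell cannot be told apart.

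Each library held between 14022929 and 33871843 counts assigned to genes, with a median of 20968840. Summed melanocyte markers lay between 35070 and 41810 CPM (counts scaled to library size) in all 12 tumors, and 0 of the 10 melanocyte markers passed the test in either anti–PD-1 comparison. Between diets, 1 was higher and 1 lower under isotype, 1 was higher under anti–PD-1, and 1 was higher and 1 lower averaged over treatments. Summed macrophage markers (9 of 10 in the table) ranged from 139.8 to 469.4 CPM and summed fibroblast markers (10 of 10) from 245.2 to 2940 CPM. Skeletal muscle markers ranged more widely, from 8.946 to 633.2 CPM. Hepatocyte markers did not exceed 0.2115 CPM in sum. Values below are CPM scaled by TMM factors, fold changes are on the log2 scale, and P values come from edgeR's quasi-likelihood test over all 12 tumors. They set each difference against the spread between tumors within groups, estimated over the 4 groups together. FDR is the Benjamini-Hochberg value over all 13095 genes. A gene is said to have risen, fallen, or been higher or lower by the test at unadjusted P below 0.05, and its FDR is given beside it.

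The promoters of Igf1r and Igf1 are shown because these were the members with a P value below 0.05 in any comparison. Each is the RefSeq window on GRCm38.p6 from 250 bases before to 50 bases after a transcription start, 5′ to 3′ on the gene's strand. Capitals mark matches, on either strand, to a nuclear receptor half-site (AGGTCA) or an Sp1 GC box (GGGCGG). The Igf1r window is chr7:67952007-67952306 on the plus strand and the Igf1 window is chr10:87860861-87861160 on the plus strand.
Igf1r: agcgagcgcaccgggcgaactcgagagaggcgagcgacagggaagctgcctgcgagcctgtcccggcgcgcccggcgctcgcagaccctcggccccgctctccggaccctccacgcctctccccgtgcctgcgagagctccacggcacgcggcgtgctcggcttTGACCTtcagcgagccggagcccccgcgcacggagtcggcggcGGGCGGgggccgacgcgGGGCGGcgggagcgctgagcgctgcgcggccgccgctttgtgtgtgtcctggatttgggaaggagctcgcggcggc
Igf1: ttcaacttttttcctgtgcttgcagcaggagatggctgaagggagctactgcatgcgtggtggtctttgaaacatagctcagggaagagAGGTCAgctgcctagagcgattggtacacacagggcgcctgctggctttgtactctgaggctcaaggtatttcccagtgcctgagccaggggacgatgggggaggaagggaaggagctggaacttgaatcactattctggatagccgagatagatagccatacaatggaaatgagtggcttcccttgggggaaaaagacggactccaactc
The Igf1r window was 76% G and C, against a median of 52.7% over 32851 windows, and held 2 GC boxes and 1 half-site. The Igf1 window was 52.3% G and C and held 1 half-site. Of all windows, 35.7% held a GC box and 16.3% a half-site. Searches for a FOXO site (GTAAACA, in 3.65% of windows), a STAT site (TTCNNNGAA, in 8.3%) and a TATA box (TATAAA, in 13.6%) found no match in either window. Windows were found for 9 of the 10 members, in 13 windows in all, and the single TATA box among them was in the Igfbp4 window. A match is a description of letters in the window.

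Compared per kilobase of exon, the members covered a wide range of levels. Igfbp4 was highest at 63.8 ± 7.23 CPM per kilobase (SD, n = 12), followed by Igfbp3 at 35.3 ± 5.94. Both encode secreted proteins that bind IGFs. The receptor genes came next, Insr at 4.31 ± 0.674 and Igf1r at 2.58 ± 0.612 CPM per kilobase. Each of these was above the next gene in the order in at least 11 of 12 tumors. Igfbp5 (1.23 ± 0.828), Irs1 (1.00 ± 0.208) and Irs2 (0.881 ± 0.178) overlapped, with Igfbp5 above Irs1 in 7 tumors and Irs1 above Irs2 in 8. Igf1, at 0.379 ± 0.169 CPM per kilobase, was below Irs2 in all 12 tumors. Lepr (0.0649 ± 0.0360) and Igf2 (0.0419 ± 0.0385) were lowest, and Lepr was above Igf2 in 8 tumors.

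**Figure D1:**
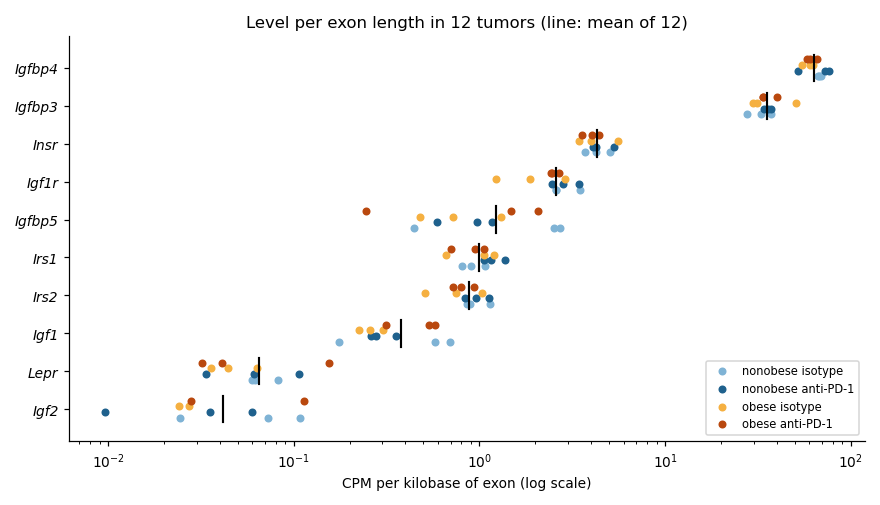
Level of each member in CPM per kilobase of exon on a log axis, 1 point per tumor colored by group, with the mean of 12 tumors as a line. The 2 tumors in which Igf2 had 0 counts cannot be drawn on a log axis, and Igfbp4 and Igfbp3 sit above every other member.

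Of the ligands, Igf1 encodes IGF-1, the main activating ligand of the IGF-1 receptor (ENSMUSG00000020053.18, chr10:87858265-87937042 on GRCm38). It measured 1.73, 6.88 and 5.68 CPM in nonobese isotype tumors and 2.59, 3.53 and 2.77 CPM in nonobese anti–PD-1 tumors. In obese mice the values were 2.57, 2.24 and 3.01 CPM under isotype and 3.10, 5.71 and 5.29 CPM under anti–PD-1. The obese groups did not overlap, each anti–PD-1 tumor lying above each isotype tumor, whereas the nonobese groups overlapped because nonobese isotype replicate 1 was the lowest of all 12. The log2 fold change with anti–PD-1 was 0.85 (SE 0.42, FDR 0.672) in obese mice and -0.68 (SE 0.41, FDR 0.929) in nonobese mice, so neither passed. The obese response passed without nonobese isotype replicate 1 (0.852), nonobese isotype replicate 2 (0.868) or obese anti–PD-1 replicate 1 (1.09). It also passed the unadjusted threshold under DESeq2 (0.869), with every gene of at least 1 count (0.855) and with only the 6 tumors compared (0.865). The difference between these responses, which compares the obese response with the nonobese one directly, was 1.53 (SE 0.58, FDR 0.295), with a 95% interval from 0.28 to 2.78. It passed unadjusted P below 0.05 and did not pass an FDR of 0.05. Without nonobese isotype replicate 2 it was 1.17 (FDR 0.6) and no longer passed the unadjusted threshold, whereas without nonobese isotype replicate 1 it was 1.93 (FDR 0.0488). Without that replicate 1, the nonobese response was -1.08 and passed the unadjusted threshold, and without nonobese isotype replicate 2 it was -0.299. Between diets, Igf1 differed by -0.86 (FDR 0.392) under isotype and 0.67 (FDR 0.639) under anti–PD-1. The isotype value passed the unadjusted threshold under DESeq2 (-0.881), with every gene of at least 1 count (-0.848), with at least 10 counts in every tumor (-0.899), and without nonobese isotype replicate 1 (-1.26) or obese anti–PD-1 replicate 1 (-0.878), and was -0.497 without nonobese isotype replicate 2. The value under anti–PD-1 passed without nonobese isotype replicate 1 (0.667) and ran from 0.506 to 0.894 over the 12 fits with 1 tumor left out. The comparisons within diet and within treatment share tumors, so these values are not independent of each other.

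Markers of several host cell types moved with Igf1. In the difference between responses, 8 of 9 macrophage markers (median log2 difference 1.91), 7 of 10 fibroblast markers (2.17), 7 of 8 T cell markers (3.6) and 9 of 9 adipocyte markers (4.89) passed at P below 0.05, all higher. With anti–PD-1 in nonobese mice, 8 of 9 macrophage markers fell and 0 rose, and 7 of 10 fibroblast markers fell. In obese mice, 4 of 9 macrophage markers and 0 of 10 fibroblast markers rose. Summed macrophage markers lay between 199.1 and 437.5 CPM in nonobese isotype, 139.8 and 181.8 in nonobese anti–PD-1, 145.9 and 279.4 in obese isotype, and 212.0 and 469.4 in obese anti–PD-1 tumors. Relative to these sums, Igf1 was 13.3 ± 3.98 CPM per 1000 CPM of macrophage markers in nonobese isotype, 18.6 ± 3.45 in nonobese anti–PD-1, 13 ± 3.34 in obese isotype and 13 ± 1.65 in obese anti–PD-1 tumors (SD, n = 3). Relative to the summed fibroblast markers it was 2.39 ± 0.397, 6.12 ± 1.82, 4.67 ± 3.86 and 4.32 ± 2.06 CPM per 1000 CPM in the same order of groups. The highest tumor was 2.54 times the lowest in the ratio to macrophage markers and 4.73 times in the ratio to fibroblast markers. The part of these markers in the Igf1 values was not tested. The genes whose log2 CPM followed Igf1 most closely over the 12 tumors were Lst1 (Pearson r 0.939), Cyp1b1 (r 0.929) and P2ry13 (r 0.924).

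Igf2 encodes a fetal growth factor that also activates the IGF-1 receptor. It had between 0 and 13 counts per tumor and was not tested. Its levels were 0.128, 0.382 and 0.568 CPM in nonobese isotype, 0.0508, 0.186 and 0.312 in nonobese anti–PD-1, 0.126, 0 and 0.143 in obese isotype, and 0, 0.148 and 0.593 CPM in obese anti–PD-1 tumors. The groups overlapped, and a count of 0 allowed up to 0.21 CPM in obese isotype replicate 2 and up to 0.212 CPM in obese anti–PD-1 replicate 1. In the annotation, 68.5% of Igf2 exon bases are shared with Gm49394 on the same strand, so reads there could be split or left out. H19, the imprinted neighbor of Igf2 expressed from the other parental chromosome, spanned 0.514 to 9.40 CPM. Insulin itself (Ins1 and Ins2) had 0 counts in all 12 tumors, which allows up to 0.011 CPM over the 12 together.

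The receptors differed in how they varied. Insr encodes the insulin receptor (ENSMUSG00000005534.10, chr8:3122061-3279617). It measured 47.0, 34.7 and 40.0 CPM in nonobese isotype tumors, 39.6, 49.5 and 38.1 in nonobese anti–PD-1, 37.6, 32.3 and 52.3 in obese isotype, and 33.4, 41.2 and 38.0 CPM in obese anti–PD-1 tumors. All 4 groups overlapped, and none of the 6 tests passed. The 95% interval for obese against nonobese, averaged over treatments, ran from -0.35 to 0.18, or a fold from 0.783 to 1.14.

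Igf1r encodes the IGF-1 receptor (ENSMUSG00000005533.10, chr7:67952827-68233668). Its levels were 40.0, 29.5 and 29.4 CPM in nonobese isotype and 21.5, 14.0 and 32.9 CPM in obese isotype tumors. In the anti–PD-1 groups they were 32.3, 39.1 and 28.2 CPM in nonobese and 28.1, 30.7 and 27.6 CPM in obese mice. Obese isotype replicate 2 was the lowest of all 12, and obese isotype replicate 3 lay within the nonobese range, so the isotype groups overlapped. Igf1r was lower in obese than nonobese mice under isotype, by -0.52 (SE 0.24, FDR 0.375, unadjusted P below 0.05), and averaged over treatments, by -0.37 (SE 0.17, FDR 0.475, unadjusted P below 0.05). Under anti–PD-1 the difference was -0.21 (SE 0.24, FDR 0.855), and -0.0706 without nonobese anti–PD-1 replicate 2. The response to anti–PD-1 in obese mice was 0.33 (SE 0.24, FDR 0.785), and ran from 0.0932 without obese isotype replicate 2 to 0.703, where it passed the unadjusted threshold, without obese isotype replicate 3. A fit of only the 6 isotype tumors ended the isotype call (-0.549, FDR 0.381), and a replicate block ended both calls (-0.538, FDR 0.407, under isotype and -0.375, FDR 0.493, averaged). The isotype call was lost without any of 5 tumors: nonobese isotype replicate 1 (-0.359), obese isotype replicate 1 (-0.496), obese isotype replicate 2 (-0.288), obese anti–PD-1 replicate 2 (-0.538) and obese anti–PD-1 replicate 3 (-0.538). Without obese isotype replicate 3 it was -0.898 (FDR 0.138). The averaged call held in 4 of 12 such fits, without nonobese isotype replicate 2 or 3, nonobese anti–PD-1 replicate 3 or obese isotype replicate 3, and its estimate ran from -0.552 without obese isotype replicate 3 to -0.247 without obese isotype replicate 2. The closest genes over the 12 tumors were Hdac4 (r 0.952), Rgs12 (r 0.944) and Iqsec1 (r 0.942), and r with Hdac4 was 0.787 without the 2 tumors farthest from the Igf1r median.

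Lepr, the leptin receptor gene (chr4:101717404-101815352), had between 3 and 23 counts per tumor. It measured 0.546, 0.411 and 0.398 CPM in nonobese isotype, 0.407, 0.711 and 0.223 in nonobese anti–PD-1, 0.294, 0.420 and 0.239 in obese isotype, and 0.212, 1.03 and 0.274 CPM in obese anti–PD-1 tumors. The highest value came from a single tumor, obese anti–PD-1 replicate 2. No comparison passed, and the anti–PD-1 estimate in obese mice went from 0.72 to -0.322 without that tumor. At these counts the intervals were wide, from -0.70 to 2.14 for that comparison.

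The substrates Irs1 and Irs2 encode docking proteins that pass the receptor signal to PI3K. Irs1 was 9.83, 8.23 and 7.38 CPM in nonobese isotype, 12.6, 9.74 and 10.5 in nonobese anti–PD-1, 6.06, 9.65 and 11 in obese isotype, and 6.42, 9.74 and 8.71 CPM in obese anti–PD-1 tumors. Under anti–PD-1 the diets did not overlap, by a margin of less than 0.01 CPM, and the difference was -0.39 (SE 0.23, FDR 0.618). It was -0.237 without obese anti–PD-1 replicate 1 and did not pass in any of the 12 fits with 1 tumor left out. The difference between responses was -0.46 (SE 0.33, FDR 0.579) and passed the unadjusted threshold only without obese isotype replicate 1 (-0.659). In the annotation, 30.9% of Irs1 exon bases are shared with Gm9747 on the opposite strand. The kit kept strand, but whether the counting used it is not given in the sources used here. Irs2 ranged from 3.22 CPM, in obese isotype replicate 2, to 7.20 CPM, in nonobese isotype replicate 2. Its largest difference was -0.32 (SE 0.25, FDR 0.587) for obese against nonobese under isotype, and all groups overlapped. That value was -0.613 and passed the unadjusted threshold without obese isotype replicate 3, and was -0.119 without obese isotype replicate 2 and -0.191 without nonobese isotype replicate 2. The averaged value also passed without obese isotype replicate 3 (-0.428).

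Of the binding proteins, Igfbp4 varied least and Igfbp5 most. Igfbp4 was 265, 263 and 272 CPM in nonobese isotype, 299, 285 and 204 in nonobese anti–PD-1, 245, 236 and 214 in obese isotype, and 258, 227 and 238 CPM in obese anti–PD-1 tumors. Each obese isotype tumor was below each nonobese isotype tumor, with a difference of -0.20 (SE 0.13, FDR 0.503). Without nonobese anti–PD-1 replicate 3, this value (-0.212), the diet value under anti–PD-1 (-0.254) and their average (-0.233) passed the unadjusted threshold, and with all 12 tumors none did. Igfbp3, the main IGF carrier of the circulation, lay between 86.1 and 158.8 CPM, and the highest value was obese isotype replicate 1. No Igfbp3 comparison passed, and the lowest FDR was 0.642.

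Igfbp5 encodes a binding protein that attaches to extracellular matrix. It measured 2.67, 16.3 and 15.2 CPM in nonobese isotype, 3.56, 5.85 and 7 in nonobese anti–PD-1, 4.33, 2.87 and 7.83 in obese isotype, and 1.48, 8.90 and 12.4 CPM in obese anti–PD-1 tumors. Every group overlapped the others, and the within-group SD was 1.17 on the log2 scale, against a median of 0.209 over all genes tested. The estimates were -1.05 with anti–PD-1 in nonobese mice, 0.60 in obese mice, and 1.65 (SE 0.95, FDR 0.489) for the difference between them. Between diets they were -1.17 (SE 0.67, FDR 0.462) under isotype, the lowest of any tested member in that comparison, and 0.48 (SE 0.67, FDR 0.887) under anti–PD-1. None of these passed with all 12 tumors. With 1 tumor left out, the nonobese response ran from -1.52, where it passed the unadjusted threshold, without nonobese isotype replicate 1 to -0.688 without nonobese isotype replicate 2. The obese response ran from 0.0833 without obese anti–PD-1 replicate 3 to 1.09 without obese anti–PD-1 replicate 1. The isotype diet difference passed without nonobese isotype replicate 1 (-1.64) or obese anti–PD-1 replicate 1 (-1.18), and was -0.821 without nonobese isotype replicate 2. The difference between responses passed without nonobese isotype replicate 1 (2.12) or obese anti–PD-1 replicate 1 (2.14), and its lowest value was 1.14. Summed fibroblast markers in the same order of groups ran from 673.4 to 2940, 319.1 to 620.3, 245.2 to 1192 and 467.8 to 1988 CPM. Relative to them, Igfbp5 was 5.14 ± 1.16 CPM per 1000 CPM in nonobese isotype, 10.7 ± 1.12 in nonobese anti–PD-1, 7.42 ± 3.93 in obese isotype and 5.04 ± 1.65 in obese anti–PD-1 tumors (SD, n = 3). The part of fibroblast content in the Igfbp5 values was not tested. Its closest genes were Clip4 (r 0.949), Slco2a1 (r 0.921) and Ecm2 (r 0.913).

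**Figure D2:**
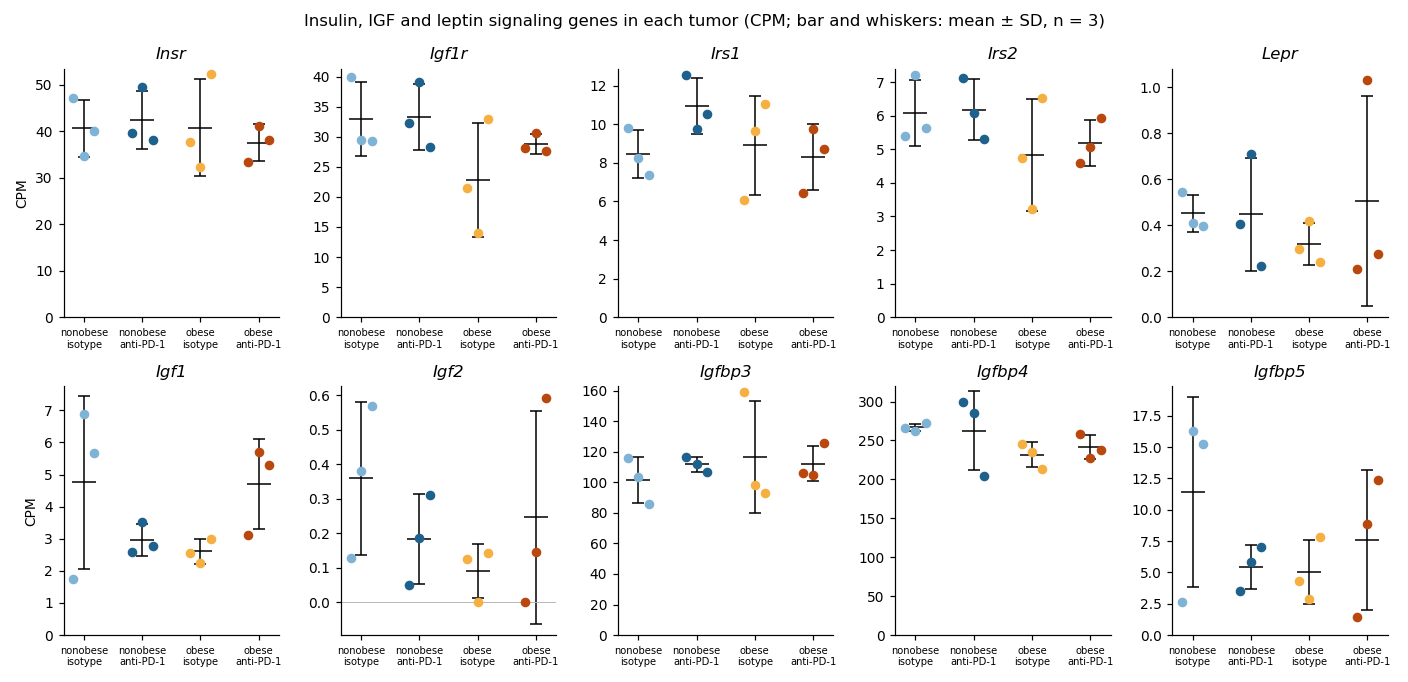
CPM of each member in every tumor, 1 panel per gene with its own axis that starts at or below 0, and the mean ± SD (n = 3) of each group as a bar with whiskers. Obese anti–PD-1 tumors lie above obese isotype tumors for Igf1, and most other groups overlap.

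**Figure D3:**
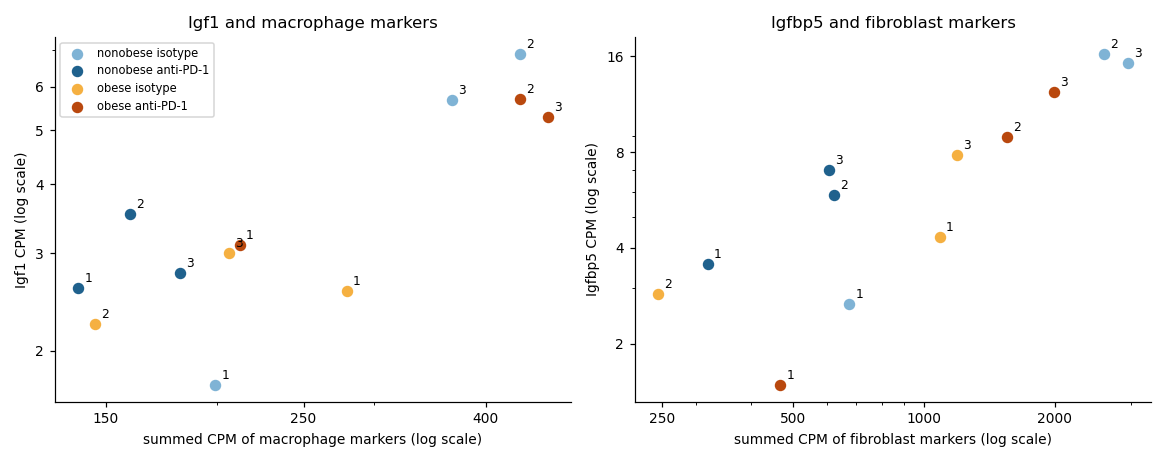
Igf1 CPM against summed macrophage marker CPM, and Igfbp5 CPM against summed fibroblast marker CPM, both axes on a log scale, 1 point per tumor labelled with its replicate number. The 4 tumors with more than 5 CPM of Igf1 are those with the most macrophage marker RNA.

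Among pairs of members, Igf1 and Igfbp5 moved together over the 12 tumors (Pearson r 0.804, Spearman rho 0.79, r 0.747 without the 2 tumors farthest from the Igf1 median, and r 0.881 within groups). These points share library and tissue makeup, and the correlation is given as a description.

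Counted over the members, 0 of 9 passed P below 0.05 with anti–PD-1 in nonobese mice, where 1.64% of all genes tested were higher and 3.59% lower, and 0 of 9 passed in obese mice, where 4.3% were higher and 3.27% lower. For obese against nonobese under isotype, 1 of 9 was lower, with 7.11% of all genes higher and 6.17% lower. Under anti–PD-1 it was 0 of 9, with 5.71% higher and 4.56% lower. In the difference between responses 1 of 9 was higher, with 7.01% of all genes higher and 5.87% lower, and averaged over treatments 1 of 9 was lower, with 5.21% higher and 5.19% lower. Groups did not overlap for 0 of 9 members with anti–PD-1 in nonobese mice (11.2% of all genes), 1 of 9 in obese mice (12.4%), 1 of 9 between diets under isotype (19.4%) and 1 of 9 between diets under anti–PD-1 (13.6%). No member passed an FDR of 0.05 in any of the 6 comparisons with edgeR or with DESeq2, where the lowest FDR was 0.188. Of all 13095 genes tested, edgeR called 24 (0.183%) in the averaged diet comparison, 50 (0.382%) for diet under anti–PD-1 and 0 in each of the other 4, where 685 to 1739 passed the unadjusted threshold and DESeq2 called 9 to 283. The 50 ran from 2 without nonobese anti–PD-1 replicate 2 to 214 without obese anti–PD-1 replicate 1, and the 24 from 9 without nonobese isotype replicate 2 to 37 without nonobese anti–PD-1 replicate 3. Where edgeR called 0, the count reached 76 for anti–PD-1 in obese mice and 197 for the difference between responses, both without obese anti–PD-1 replicate 1. With 1 tumor left out it reached no more than 2 for anti–PD-1 in nonobese mice and 3 for diet under isotype. With every gene of at least 1 count, the difference between responses gave 55, anti–PD-1 in obese mice 6 and diet under isotype 5. With only the 6 tumors compared, the 50 became 0. With the replicate block the 50 became 95 and the 24 became 20. The block also gave 2 genes for anti–PD-1 in obese mice and 11 for the difference between responses. Median log2 fold changes of the 9 members lay between -0.32 (obese against nonobese under isotype) and 0.10, and those of all genes between -0.04 and 0.02.

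**Figure D4:**
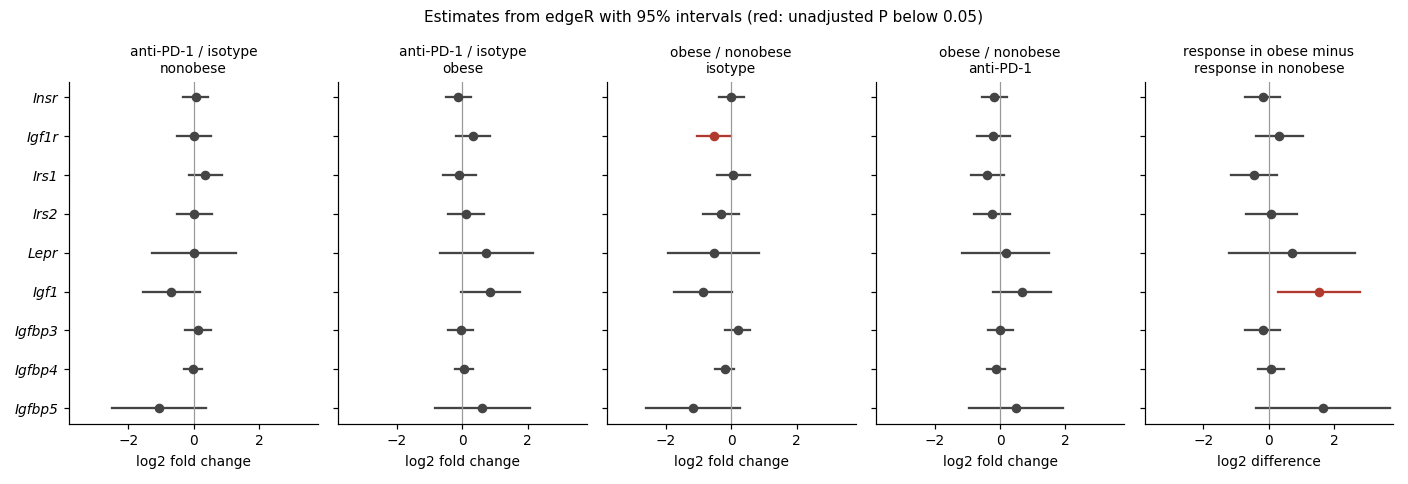
Log2 fold changes of the 9 tested members with 95% intervals in 5 comparisons, with unadjusted P below 0.05 in red. Igf1r under isotype (-0.52) and Igf1 in the difference between responses (1.53) are the only red points.

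Other genes of the pathway were taken from lists of 87 genes, of which 74 were tested. With P below 0.05, 1 rose (1.35%) and 3 fell (4.05%) with anti–PD-1 in nonobese mice, against 1.64% and 3.59% of all genes. In obese mice 3 rose (4.05%) and 1 fell (1.35%), against 4.3% and 3.27%. Under isotype 7 were higher (9.46%) and 4 lower (5.41%) in obese mice, against 7.11% and 6.17%, and under anti–PD-1 6 were higher (8.11%) and 3 lower (4.05%), against 5.71% and 4.56%. The 3 lower under anti–PD-1 include Igf2bp1, which encodes an RNA-binding protein (-0.61, FDR 0.452). Its call was lost with the replicate block (FDR 0.525) and in 4 of 12 fits with 1 tumor left out. Igf2bp1 was also lower under isotype (-0.67, FDR 0.33), a call lost in 4 of 12 such fits. Averaged over treatments its difference was -0.64 (FDR 0.248), and that call was lost in 0 of 12. In the difference between responses 4 were higher and 4 lower (5.41% each), against 7.01% and 5.87%, and averaged over treatments 7 were higher (9.46%) and 2 lower (2.7%), against 5.21% and 5.19%. Of these genes, only Fbxo32 passed an FDR of 0.05 in edgeR, a call that was lost with a replicate block. Leptin itself, Lep, measured 0.289, 0.588 and 0.852 CPM in nonobese isotype, 0, 0.186 and 0.446 in nonobese anti–PD-1, 0.168, 0.420 and 0.621 in obese isotype, and 2.96, 1.03 and 2.05 CPM in obese anti–PD-1 tumors. All 3 obese anti–PD-1 tumors lay above the other 9, and the share of all genes with this order was not counted. Lep rose by 2.31 with anti–PD-1 in obese mice (SE 0.74, FDR 0.416) and was higher by 3.19 in obese than nonobese mice under anti–PD-1 (SE 0.77, FDR 0.108). Adipocyte markers, a list that includes Lep itself, moved in the same direction: 9 of 9 tested, Lep among them, rose with anti–PD-1 in obese mice. Their sum, which includes Lep, lay between 43.68 and 103.6 CPM in obese anti–PD-1 tumors and between 22.13 and 29.52 CPM in obese isotype tumors. The part of fat tissue in the Lep values was not tested. Leprot, whose product controls how much leptin receptor reaches the cell surface, was higher by 0.40 in obese mice under isotype (FDR 0.3), and lost the call without nonobese isotype replicate 3 or obese isotype replicate 2 (lowest 0.272).

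Among the binding protein regulators, Adam12, a protease that cleaves IGF binding proteins, was lower in obese mice. It measured 217.8, 158.6 and 162.9 CPM in nonobese isotype, 178.5, 203.2 and 141.0 in nonobese anti–PD-1, 119.6, 94.8 and 118.4 in obese isotype, and 136.7, 107.7 and 120.1 CPM in obese anti–PD-1 tumors. Every obese tumor was below every nonobese tumor. The share of all genes separated in this way was not counted, and Adam12 was named for its P value within its list. The difference was -0.70 under isotype (FDR 0.149), -0.52 under anti–PD-1 (FDR 0.227) and -0.61 on average (SE 0.11, FDR 0.0586). With anti–PD-1 in nonobese mice, Igfbp6 fell by 1.32 (FDR 0.833) and Htra1, a secreted protease, fell by 0.93 (FDR 0.881). In the same comparison 7 of 10 fibroblast markers (median -1.52) and 8 of 9 macrophage markers fell, and their part in these values was not tested. Htra1 lost the call without nonobese isotype replicate 2 or 3 or nonobese anti–PD-1 replicate 3 (weakest -0.703), and Igfbp6 without nonobese isotype replicate 3. Stc1, an inhibitor of another such protease, rose by 0.56 with anti–PD-1 in obese mice (FDR 0.581), and lost the call without obese isotype replicate 2 or obese anti–PD-1 replicate 1 or 3 (lowest 0.404).

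Downstream of the receptors, 3 of 25 PI3K, AKT and mTOR genes were higher in obese mice under isotype and 0 lower, against 7.11% and 6.17% of all genes tested, and 0 of 25 passed averaged over treatments. They included the catalytic subunit gene Pik3ca (0.36, FDR 0.296) and the regulatory subunit gene Pik3r3 (0.39, FDR 0.319). Pik3ca lost the call without nonobese isotype replicate 2 or 3 or obese isotype replicate 3 (lowest 0.209), and Pik3r3 without nonobese isotype replicate 2 or obese isotype replicate 2 or 3 (lowest 0.22). None of the 25 passed under anti–PD-1. Of 16 adaptors and negative regulators, 1 was lower and 0 higher under isotype, Sh2b2 (-0.99, FDR 0.317). Under anti–PD-1 1 was higher and 0 lower, against 5.71% and 4.56% of all genes. This was Socs3, a feedback inhibitor of leptin receptor signaling (0.44, FDR 0.334). In this comparison 8 of 9 macrophage and 7 of 8 T cell markers were higher, and their part in the Socs3 value was not tested. Of 8 leptin receptor signaling genes, 1 was higher and 0 lower under isotype, Jak2 (0.30, FDR 0.314). Sh2b2 lost the call without nonobese isotype replicate 2 or obese isotype replicate 2 or 3 (weakest -0.72), Socs3 without nonobese anti–PD-1 replicate 2 or obese anti–PD-1 replicate 2, and Jak2 without nonobese isotype replicate 2 or 3 or obese isotype replicate 3 (lowest 0.211).

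Of 17 FOXO factors and genes known as FOXO targets, 4 were higher and 0 lower in obese mice averaged over treatments, with a list median of 0.17 against 0.00182 for all genes, of which 5.21% were higher and 5.19% lower. Under isotype 2 were higher and 1 lower, the latter Klf2 (-0.80, FDR 0.309), against 7.11% and 6.17% of all genes. Under anti–PD-1 4 were higher and 1 lower, the latter the FOXO factor gene Foxo4 (-0.32, FDR 0.174), against 5.71% and 4.56%. The 4 included Pck1 (3.88, FDR 0.146). In this comparison 9 of 9 adipocyte (median 2.73), 8 of 9 macrophage and 7 of 8 T cell markers were higher. Averaged over treatments, 4 of 9 adipocyte and 2 of 8 T cell markers were higher. The part of these markers in the FOXO list values was not tested. The Klf2 call was lost without nonobese isotype replicate 2 or 3 or obese isotype replicate 1 (weakest -0.611). Fbxo32, which encodes a ubiquitin ligase subunit, measured 9.54, 8.23 and 11.4 CPM in nonobese isotype, 8.39, 10.0 and 9.19 in nonobese anti–PD-1, 14.1, 16.4 and 15.7 in obese isotype, and 13.1, 14.2 and 14.5 CPM in obese anti–PD-1 tumors. Every obese tumor was above every nonobese tumor. The share of all genes separated in this way was not counted, and Fbxo32 was named for its P value within its list. Its average difference was 0.63 (SE 0.11, FDR 0.0389). With 1 tumor left out it lay between 0.57 and 0.686, and the FDR stayed below 0.05 only without nonobese isotype replicate 3, nonobese anti–PD-1 replicate 3, obese isotype replicate 1 or obese anti–PD-1 replicate 1, reaching 0.156 without obese anti–PD-1 replicate 2. With a replicate block the FDR was 0.0591. Bcl6, a transcriptional repressor, was higher by 0.67 (FDR 0.145) and the cell cycle gene Ccng2 by 0.52 (FDR 0.245). Fbxo32 is also a gene of skeletal muscle. Skeletal muscle markers spanned 8.946 to 633.2 CPM, and 0 of 10 passed in the averaged comparison.

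**Figure D5:**
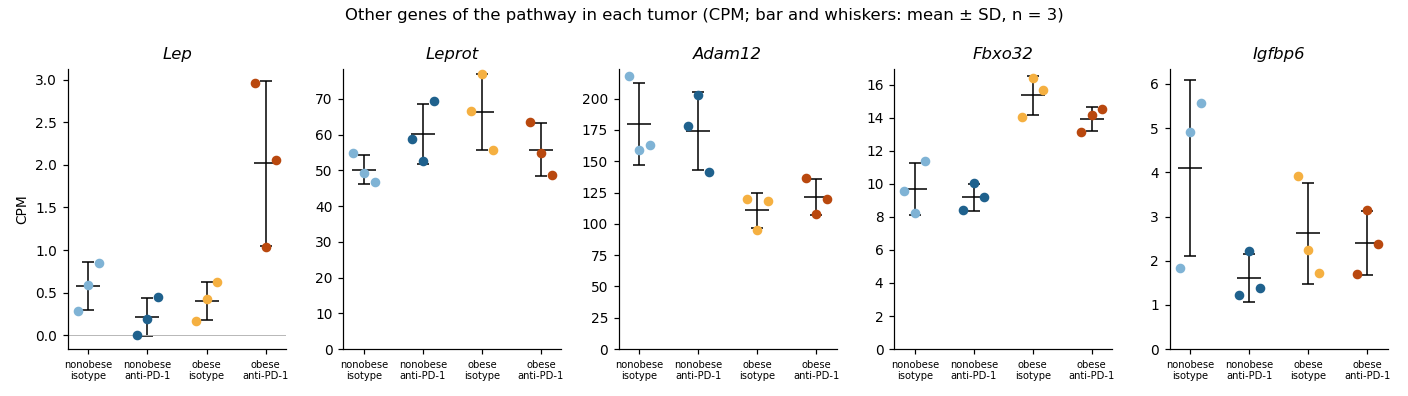
CPM of Lep, Leprot, Adam12, Fbxo32 and Igfbp6 in every tumor, with the mean ± SD (n = 3) of each group. For Adam12 and Fbxo32 the obese and nonobese tumors do not overlap, and for Lep the 3 obese anti–PD-1 tumors lie above the other 9. The share of all genes separated in these ways was not counted.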

How the data were processed

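Bulk RNA-seq was made from 12 frozen B16-F10 tumors with a stranded mRNA kit. The authors deposited raw counts per gene. Their processing notes name FastQC 0.11.5, STAR 2.7.0f, HTSeq 0.9.1, edgeR 3.28.1 and mm10. The annotation and strand setting are not given in the sources used here. Groups and replicate numbers came from the sample titles. Counts were filtered with filterByExpr (13095 genes left), scaled by TMM and tested with edgeR 4.0.16 (glmQLFit, glmQLFTest) in R 4.3.3, with 1 coefficient per group, all 12 tumors and Benjamini-Hochberg adjustment. Intervals are 95%. Exon lengths and gene coordinates came from GENCODE M21 (GRCm38). The script was tested on simulated data. Alternatives were DESeq2 1.42.0, RLE scaling, a looser and a stricter count filter, glmQLFit without its legacy option, only the tumors compared, a replicate block, and leaving out each tumor. Deviations of same-numbered tumors correlated at over 0.1 in every pair for obese against nonobese under anti–PD-1 (0.443, 0.111 and 0.351). This held in no other direct comparison made here. Same-numbered tumors also did so between nonobese isotype and obese anti–PD-1 (0.563, 0.184 and 0.409), which were not compared directly. Different-numbered tumors reached 0.447. The titles give only a replicate number, so no pairing is known. The main test did not pair tumors, and the replicate block was an alternative. Named genes were the members, the 3 list genes of smallest P below 0.05 per list and comparison, the 3 genes most correlated with each member, and genes overlapping a member. One list gene is not reported here. Members and lists were chosen with earlier results of these data known. Depth limits precision for Igf2 and Lepr, and intervals for counts of 0 cover counting error only.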

Additional observations from a re-analysis of the deposited data

Results flagged for a closer look

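The response to anti–PD-1 differed between obese and nonobese mice, by the test of the difference itself at unadjusted P below 0.05, for 1 of 9 members and 8 of 74 list genes (5.41% higher and 5.41% lower), against 7.01% higher and 5.87% lower over all genes tested. As log2 differences, obese minus nonobese, these were 1.53 for Igf1 (FDR 0.295), 3.68 for Lep (FDR 0.177), -0.51 for Leprot (FDR 0.316), 1.24 for Htra1 (FDR 0.344), -0.46 for Pik3ca (FDR 0.308), -0.51 for Pik3r3 (FDR 0.339), -0.43 for Foxo4 (FDR 0.186), 4.65 for Pck1 (FDR 0.217) and 1.22 for Klf2 (FDR 0.254). None passed an FDR of 0.05 in edgeR. With 1 tumor left out, Lep, Foxo4 and Klf2 kept the unadjusted call in all 12 fits, and the call was lost in 1 for Igf1 (without nonobese isotype replicate 2) and Pck1 (without the same tumor), 4 for Pik3ca, 5 for Leprot, 6 for Htra1 and 7 for Pik3r3. Lep and Pck1 were low, at no more than 3.92 CPM in any tumor, and 9 of 9 adipocyte markers tested, Lep among them, were higher in the same difference.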

How the results depend on the processing

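Of 351 member values under other settings, 329 kept their direction and their side of P 0.05, 3 lost the threshold, 6 gained it and 13 changed sign; with 1 tumor left out, 567 of 648 did so, 14 lost it, 20 gained it and 47 changed sign. None of the values that changed sign had passed the threshold. Members past P 0.05 became 1 with anti–PD-1 in obese mice under DESeq2, every gene of at least 1 count and only the 6 tumors compared. For obese against nonobese under isotype they became 2 under DESeq2, every gene of at least 1 count and at least 10 counts in every tumor, and 0 with only the 6 tumors compared. With the replicate block they became 0 for obese against nonobese under isotype (Igf1r -0.538) and averaged over treatments (Igf1r -0.375). For diet under anti–PD-1 the block changed no member's call, and among the named list genes it ended that of Igf2bp1. Same-numbered tumors correlated at 0.133 on average (18 pairs, -0.264 to 0.563) and others at -0.0623 (36 pairs). With 1 tumor left out the counts of members ran from 0 to 2, 0 to 1, 0 to 3, 0 to 1, 0 to 2 and 0 to 2 for anti–PD-1 in nonobese mice, anti–PD-1 in obese mice, diet under isotype, diet under anti–PD-1, the difference between responses and the averaged diet comparison. Genes with an FDR below 0.05 under DESeq2 numbered, in the same order, 9, 105, 200, 270, 283 and 172, against 0, 0, 0, 50, 0 and 24 in edgeR. The FDR of Fbxo32 in the averaged diet comparison was 0.0591 with the replicate block. Member values that changed sign under other settings were close to 0. With at least 10 counts in every tumor the values were Igf1r -0.0141 (anti–PD-1 in nonobese mice), Irs2 -0.011 (anti–PD-1 in nonobese mice), Insr -0.0235 (diet under isotype). With only the 6 tumors compared the values were Igf1r -0.00145 (anti–PD-1 in nonobese mice), Lepr -0.00523 (anti–PD-1 in nonobese mice), Insr -0.0169 (diet under isotype). With DESeq2 the values were Lepr -0.0109 (anti–PD-1 in nonobese mice), Insr -0.00576 (diet under isotype). With RLE scaling the values were Lepr -9e-04 (anti–PD-1 in nonobese mice), Insr -0.00541 (diet under isotype). With the replicate block the values were Lepr -0.119 (anti–PD-1 in nonobese mice), Insr -0.00139 (diet under isotype). With every gene of at least 1 count the values were Igfbp3 -0.00697 (diet under anti–PD-1). Member values whose sign changed with 1 tumor left out are given as their lowest and highest estimates. For anti–PD-1 in nonobese mice these were Insr -0.0616 to 0.189, Igf1r -0.123 to 0.179, Irs2 -0.0938 to 0.164, Lepr -0.533 to 0.304, Igfbp4 -0.127 to 0.11. For anti–PD-1 in obese mice these were Insr -0.249 to 0.116, Irs1 -0.297 to 0.109, Irs2 -0.106 to 0.387, Lepr -0.322 to 1.07, Igfbp3 -0.187 to 0.25. For diet under isotype these were Insr -0.228 to 0.137, Irs1 -0.14 to 0.266, Igfbp3 -0.111 to 0.326. For diet under anti–PD-1 these were Lepr -0.877 to 0.715, Igfbp3 -0.0884 to 0.0511, Igfbp5 -0.0493 to 0.962. For the difference between responses these were Insr -0.314 to 0.0513, Irs2 -0.125 to 0.369, Lepr -0.326 to 1.25, Igfbp3 -0.321 to 0.116, Igfbp4 -0.0421 to 0.198. For the averaged diet comparison these were Igf1 -0.299 to 0.0866, Lepr -0.714 to 0.0893, Igfbp3 -0.0531 to 0.165. The cause of these changes was not tested. The estimates concerned lay within 1 standard error of 0, except those of Lepr with anti–PD-1 in obese mice and Igfbp3 for diet under isotype, which changed sign without obese anti–PD-1 replicate 2 and obese isotype replicate 1. With 3 tumors a group and 3 to 23 counts per tumor, changes of Lepr were not resolved.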
